A study of Homo sapiens with 6 samples.

Results

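Small nucleolar RNAs (snoRNAs) were described on 6 arrays of AGS, an established human gastric adenocarcinoma cell line. Their genes were taken as those whose symbol is SNORA or SNORD followed by a digit and which have a probe set that names no other gene. There were 169 such genes among the 18656 genes measured, 60 of the H/ACA class (SNORA) and 109 of the C/D class (SNORD). In 3 arrays the cells had been given an RNA that blocks miR-25-3p, a microRNA, and in the other 3 a non-targeting control RNA. All cells were transfected with a lipid reagent, again after 24 h, and were harvested 48 h after the first transfection. The comparison asks which transcripts differ when this microRNA is blocked, and per the labels the replicates of a group are biological, although how the cultures were kept apart is not given in the sources used here. If they were not separate cultures, the p-values measure only the spread between these samples. The level of the microRNA was not analysed here.

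The snoRNAs are short noncoding RNAs of the nucleolus that guide chemical marks onto other RNAs, chiefly ribosomal RNA. C/D snoRNAs pair with their target and direct 2′-O-methylation by fibrillarin, while H/ACA snoRNAs direct the conversion of uridine to pseudouridine by dyskerin, and a few of either class help to cleave the ribosomal RNA precursor. Most human snoRNAs lie in introns of host genes, many of which encode ribosomal proteins and translation factors or are long noncoding RNAs whose exons carry no protein. They are released when the intron is spliced out and trimmed.

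The RNA targeted in the experiment is shown first, since it is what the inhibitor was made to bind. Its seed, bases 2 to 8, is in capitals (RefSeq, GRCh38.p14, chr7:100093571-100093592, minus strand).
hsa-miR-25-3p: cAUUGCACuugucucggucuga

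The snoRNA genes themselves were 123 to 236 nt long in the H/ACA class, with a median of 134 nt, and 60 to 148 nt in the C/D class, with a median of 81 nt. The column kit named in the labels is of a kind that recovers RNAs of such length poorly, and a probe set inside an intron also reads unspliced host RNA. How much of each value came from the mature snoRNA was not tested. By RefSeq coordinates, 167 members lay inside the span of another gene and 2, SNORD13 and SNORD32B, did not. The 167 were spread over 87 host genes, of which 25 held several members. Strand was not used for this match.

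Many host genes of snoRNAs start transcription in a run of pyrimidines, the hallmark of messages whose translation follows growth signals. A run of at least 7 letters that are each C or T, on the transcribed strand and within 10 bases either side of the annotated start, was found in 28 of the 70 hosts with a promoter sequence (40.0%), against 13.8% of all 27305 promoters. A match is a description of letters and not of a site in use. The windows below span 15 bases on each side of the start (RefSeq, GRCh38.p14), with the run in capitals, for 6 hosts of members that were higher in the inhibitor arrays at an unadjusted p under 0.05. Windows were at hand for 10 such hosts. Within the bases searched, 5 had a run (the 4 shown and ASTN2) and 5 had none (GAS5, SNHG1, USP34, SNHG5 and RBMX). In the SNHG1 window a stretch of 7 such letters ends outside the bases searched and was not counted. Likewise a stretch in the RBMX window begins outside them and was not counted. Capitals mark only letters within the bases searched, and the TAF1D run goes on past them by a further c. Only the annotated start of each host was read, so a host without a run here may have one at another start. The hosts were chosen after the values were seen.
RABGGTB (chr1:75786241-75786270, plus strand): ctgaccctgCTCTCTCCTTTCCCTgttaga
RPL21 (chr13:27251543-27251572, plus strand): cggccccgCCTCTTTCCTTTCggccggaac
ZFAS1 (chr20:49278627-49278656, plus strand): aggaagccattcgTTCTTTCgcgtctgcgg
TAF1D (chr11:93741481-93741510, minus strand): acggaaatagccaaCCCTTTTCTTCcgcac
GAS5 (chr1:173869031-173869060, minus strand): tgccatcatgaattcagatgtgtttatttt
SNHG1 (chr11:62855871-62855900, minus strand): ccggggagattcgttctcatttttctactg

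Across the whole table, limma called 0 of 18656 genes at an adjusted p of 0.05, with 1141 genes (6.12%) at an unadjusted p under 0.05. Column medians lay between 6.02 and 6.07 on the log2 scale. Control replicate 1 was the lowest of the 6 arrays for 26.77% of all genes, more often than any other array. Markers of epithelium were bright in the AGS arrays, from 8.5507 for CLDN4 to 12.001 for KRT8 as means over the 6 arrays, while the general leukocyte gene PTPRC averaged 2.62 in inhibitor arrays and 2.55 in control arrays. All 3 leukocyte genes measured were higher in inhibitor arrays (1 of them at an unadjusted p under 0.05), CD14 the most with 4.71 against 4.25 in control arrays, and their summary level was 3.59 to 3.73 in inhibitor arrays and 3.28 to 3.54 in control arrays. The 4 fibroblast genes reached 6.37 in inhibitor arrays and 6.39 in control arrays, for COL1A1, and DCN had 2.72 in inhibitor arrays and 2.56 in control arrays. The 4 endothelial genes averaged 3.15 to 3.93 in inhibitor arrays and 3.57 to 3.96 in control arrays. The part of such genes in the results was not tested.

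The level of the snoRNA genes separated their groups. A floor was taken from 348 olfactory receptor genes, which are silent in most tissues: their median was 2.67 and their 95th percentile 4.29, as mean log2 values over the 6 arrays. Of the H/ACA genes, 43 of 60 lay above that percentile, as did 50 of 109 C/D genes. The 47 C/D genes of the large tandem clusters, the imprinted arrays of near-identical copies on chromosome 15 (SNORD115 and SNORD116) and chromosome 14 (SNORD113 and SNORD114), all lay below it, with a median of 1.66 and a maximum of 3.07, and 45 of them lay below the olfactory receptor median. These clusters are known for expression in brain and other tissues of imprinted activity. Outside them the 62 other C/D genes had a median of 5.80, close to the 5.63 of the H/ACA genes. Values of different probe sets depend on their probes, so these levels describe the arrays and do not rank RNA amounts.

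**Figure D1:**
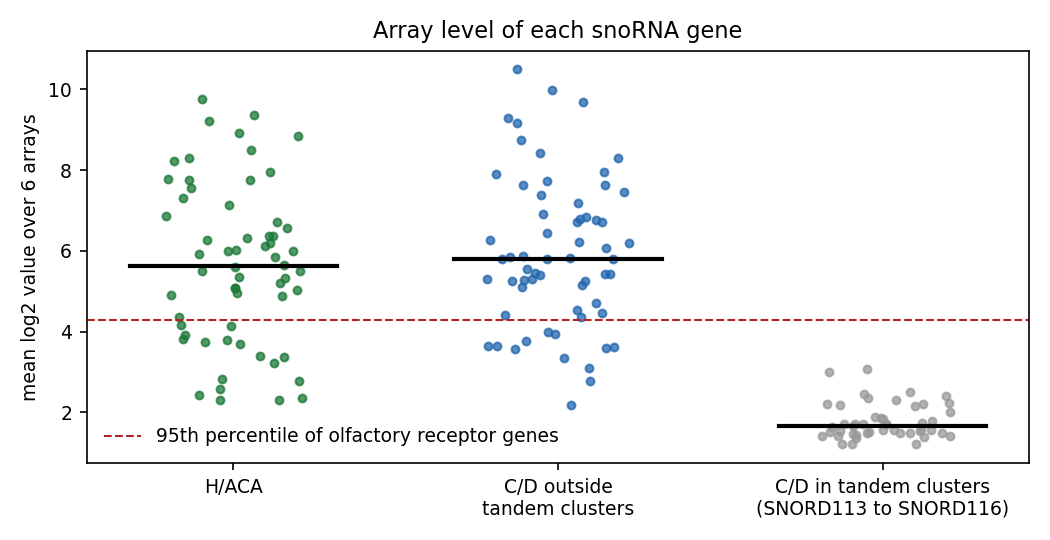
Mean log2 value over the 6 arrays for each snoRNA gene (points) by class, with the median of each group as a black bar. Every gene of the tandem clusters lies under the 95th percentile of olfactory receptor genes at 4.29 (dashed line), while 43 H/ACA genes and 50 other C/D genes lie above it.

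The 5 brightest C/D genes were SNORD13, SNORD95, SNORD28, SNORD15B and SNORD41, and of these SNORD28 alone had groups that did not overlap. SNORD13, which takes part in making the small ribosomal subunit RNA, had 10.41, 10.58 and 10.20 in inhibitor arrays, against 10.66, 10.62 and 10.50 in control arrays, so the groups overlapped. SNORD95 averaged 9.94 ± 0.17 in inhibitor arrays and 10.02 ± 0.17 in control arrays (SD, n = 3 each). SNORD15B had 9.40 ± 0.095 and SNORD41 had 9.05 ± 0.53 in inhibitor arrays, against 9.20 ± 0.16 and 9.28 ± 0.11 in control arrays (SD, n = 3 each). SNORD41 had the second-largest spread among the C/D genes: inhibitor replicate 1 stood at 8.45 while the other 5 arrays lay between 9.17 and 9.46.

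Among the brightest H/ACA genes, SNORA38B averaged 9.75 ± 0.26 in inhibitor arrays and 9.78 ± 0.23 in control arrays (SD, n = 3 each). SNORA57 had 9.31 ± 0.14, SNORA24 9.32 ± 0.074, SNORA23 9.01 ± 0.56 and SNORA10 8.77 ± 0.40 in inhibitor arrays, against 9.43 ± 0.27, 9.12 ± 0.14, 8.83 ± 0.28 and 8.92 ± 0.26 in control arrays (SD, n = 3 each). The 2 probe sets of SNORA10 held the same values. The groups overlapped for all 5 genes.

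In the inhibitor arrays, snoRNA genes outside the tandem clusters were more often higher than lower than in the control arrays, by small amounts, and no member passed the test. Limma called 0 of 169 members at an adjusted p of 0.05, against 0% of all genes. At an unadjusted p under 0.05, 14 members were higher and 3 lower, or 8.28% and 1.78% of 169, against 2.95% and 3.16% of all genes. Genes read by a single probe set, as 166 of the members are, gave 6.22% higher and 3.73% lower, 9.95% in either direction, so such genes also leaned upward. Values for genes with 1 probe set, here and below, include those members. The 879 such genes that are no members gave 5.80% higher and 4.10% lower, with 57.5% positive and a median difference of 0.027. Their groups did not overlap for 6.03% with higher and 4.55% with lower inhibitor arrays. Without inhibitor replicate 1, 8 of the 169 members were higher and 7 lower (4.73% and 4.14%, against 2.66% and 2.47% of all genes). Without control replicate 3, 16 were higher and 5 lower (9.47% and 2.96%, against 3.82% and 2.99%). Genes with several probe sets were also given their median or their brightest probe set. With the median, 8 members were higher and 1 lower (4.73% and 0.59%, against 2.8% and 3.08% of all genes). With the brightest, 7 were higher and 1 lower (4.14% and 0.59%, against 2.88% and 3.35%). The inhibitor arrays lay wholly above the control arrays for 17 members (10.1% of them, against 5.19% of all genes and 6.6% of genes with 1 probe set) and wholly below for 4 (2.37%, against 7.68% and 4.21%). The median difference, inhibitor minus control on the log2 scale, was 0.050 over the members, 0.033 over genes with 1 probe set and 0.0021 over all genes. Single differences ran from -0.40 for SNORA66 to 0.59 for SNORD50B and SNORD116-2, and 103 of 169 were positive (60.9%, against 50.7% of all genes and 58.1% of genes with 1 probe set).

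**Figure D2:**
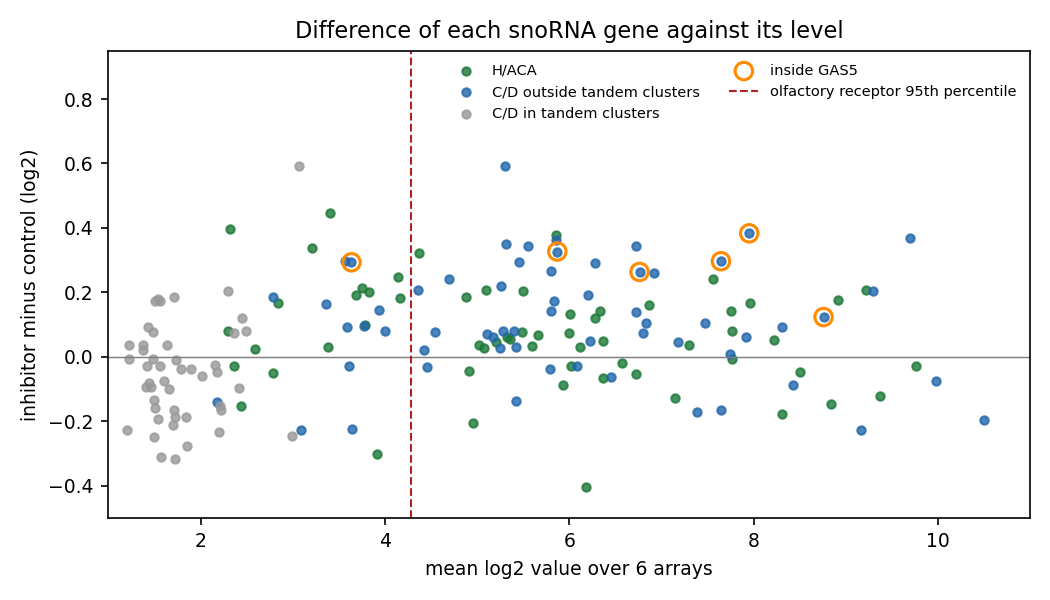
Inhibitor minus control difference (log2) of each of the 169 snoRNA genes against its mean log2 value over the 6 arrays, with classes in colour and the 6 genes inside GAS5 circled. Right of the olfactory receptor 95th percentile (dashed line), 67 of 93 points lie above 0, while 32 of the 47 genes of the tandem clusters lie below 0.

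Among the 93 members above the olfactory receptor percentile, 11 were higher and 0 lower at an unadjusted p under 0.05 (11.8% higher). All genes above that level gave 2.50% higher and 3.22% lower, and the 342 other genes above it that have a single probe set gave 7.02% higher and 4.09% lower. Positive differences made up 67 of the 93, or 72.0%, against 49.8% of all genes above the level and 60.8% of those 342. Groups did not overlap for 14 of the 93 with higher inhibitor arrays and for 0 with lower ones, against 5.09% and 8.95% of all genes above the level and 7.6% and 4.09% of the 342. In either direction 5.72% of all genes above the level and 11.1% of the 342 were at an unadjusted p under 0.05. The number of higher members is sensitive to single arrays. Without inhibitor replicate 1, 5 were higher and 4 lower (5.38% and 4.3%, against 2.66% and 2.47% of all genes). Without control replicate 1, 6 were higher and 0 lower (6.45% higher, against 3.34% and 3.39% of all genes). In these fits the shares are over all genes, dim ones included, and were not computed for genes above the level. The 76 members at or below the olfactory receptor level gave 3 higher and 3 lower, or 3.95% each way. That is near the 2.95% and 3.16% of all genes and the 3.74% and 4.02% of olfactory receptor genes.

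H/ACA genes averaged 5.88, 5.59 and 5.60 in inhibitor arrays, against 5.62, 5.61 and 5.64 in control arrays. Inhibitor replicate 1 alone stood high, and it was the highest of the 6 arrays for 34 of the 60 H/ACA genes, as it was for 33 of the 109 C/D genes, while over all genes it was the highest for 13.04%. The H/ACA mean was 5.69 ± 0.16 in inhibitor arrays and 5.62 ± 0.014 in control arrays (SD, n = 3 each), a difference of 0.067 that is under the spread of the inhibitor arrays. It was -0.026 without inhibitor replicate 1. Of the H/ACA genes, 41 had a positive difference with all arrays and 27 without that one. With all arrays 5 were higher and 1 lower at an unadjusted p under 0.05 (8.33% and 1.67%, against 2.95% and 3.16% of all genes). Genes with 1 probe set gave 6.22% and 3.73%. Without inhibitor replicate 1, 2 were higher and 6 lower (3.33% and 10.0%, against 2.66% and 2.47% of all genes). With the median probe set in the fit, 3 were higher and 1 lower (5.0% and 1.67%, against 2.8% and 3.08% of all genes). With the brightest, 2 were higher and 1 lower (3.33% and 1.67%, against 2.88% and 3.35%). In the main fit, 2 of the 43 H/ACA genes above the olfactory receptor level were higher (4.65%) and 0 lower. All genes above that level gave 2.50% and 3.22%, and the 342 others with a single probe set 7.02% and 4.09%. The other higher H/ACA genes, SNORA19, SNORA70B and SNORA70C, lay below that level.

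C/D genes outside the tandem clusters averaged 6.08, 5.99 and 5.98 in inhibitor arrays, against 5.83, 5.91 and 5.97 in control arrays. The groups did not overlap, but the lowest inhibitor array and the highest control array differed by little. The means were 6.02 ± 0.056 in inhibitor arrays and 5.91 ± 0.069 in control arrays (SD, n = 3 each), a difference of 0.11, with 47 of 62 genes positive. At an unadjusted p under 0.05, 9 of them were higher and 0 lower (14.5% higher, against 2.95% of all genes and 6.22% of genes with 1 probe set). With the median or the brightest probe set in the fit, 5 were higher (8.06%, against 2.8% or 2.88% of all genes) and 0 lower. Without inhibitor replicate 1 the mean difference was 0.079, with 48 positive. There 5 were higher and 1 lower (8.06% and 1.61%, against 2.66% and 2.47% of all genes). Without control replicate 1 the mean difference was 0.075, with 42 positive. There 5 were higher and 0 lower (8.06% higher, against 3.34% and 3.39% of all genes). The mean stayed positive without either array, and the count of higher genes was lower without each.

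The genes of the tandem clusters had a mean difference of -0.046, with 15 of 47 positive. Their means were 1.75, 1.75 and 1.79 in inhibitor arrays, against 1.86, 1.78 and 1.78 in control arrays, so control replicate 1 stood apart and the groups overlapped, with inhibitor replicate 3 above 2 of the controls. At an unadjusted p under 0.05, 0 were higher and 2 lower, SNORD116-21 and SNORD115-38 (4.26% lower, against 3.16% of all genes). All members of these clusters were at the level of silent genes, and their probe sets may read several copies.

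Within each array, the H/ACA mean minus the C/D mean was 1.66, 1.43 and 1.43 in inhibitor arrays, against 1.50, 1.48 and 1.47 in control arrays. The 2 group means differed by 0.024, less than the SD of 0.14 among inhibitor arrays, and by -0.078 among members above the olfactory receptor level. With the tandem clusters left out, the difference between classes was -0.21, -0.39 and -0.38 in inhibitor arrays, against -0.21, -0.30 and -0.33 in control arrays. With all arrays, a shift of one class against the other was not detectable beyond the replicate spread. That spread rests largely on inhibitor replicate 1. Without it, the mean difference above the olfactory receptor level was -0.065 for H/ACA and 0.094 for C/D genes. The difference between classes was not tested.

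**Figure D3:**
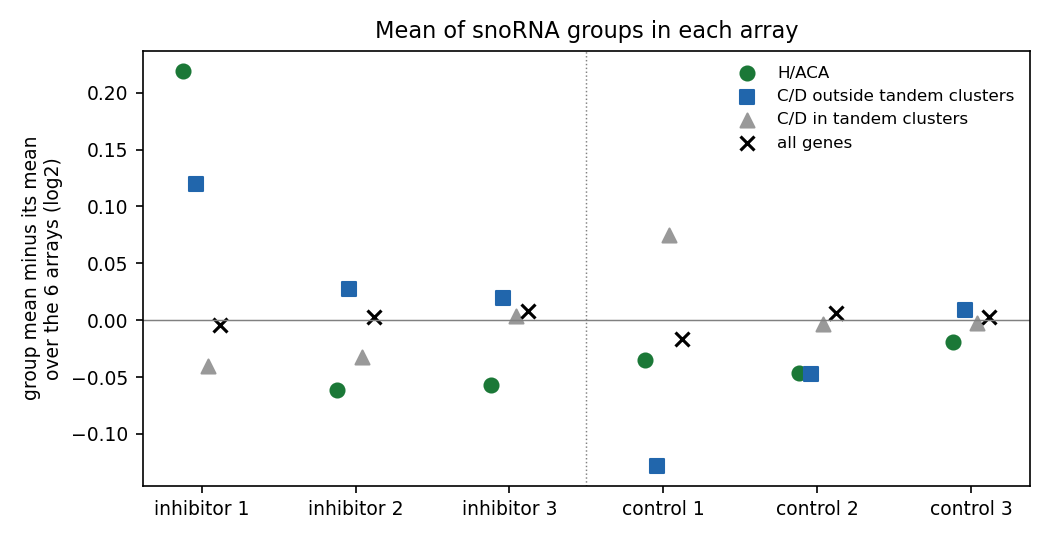
Mean of H/ACA genes, C/D genes outside and inside the tandem clusters and all genes in each array, as the difference from its own mean over the 6 arrays (log2), with inhibitor arrays left of the dotted line and control arrays right of it. H/ACA genes stand at 0.22 in inhibitor replicate 1 and at or below -0.019 in the other 5 arrays.

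The member with the smallest p was SNORD44, a C/D snoRNA inside GAS5 that is often used as a reference RNA in microRNA assays. It had 8.15, 8.14 and 8.14 in inhibitor arrays, against 7.60, 7.85 and 7.83 in control arrays. The difference was 0.38 (SE 0.097, adjusted p = 0.79 in limma). The inhibitor arrays were almost identical and lay above all controls, of which replicate 1 was the lowest. SNORD28, inside SNHG1, had 9.81, 9.85 and 9.97 in inhibitor arrays, against 9.49, 9.42 and 9.61 in control arrays, a difference of 0.37 (SE 0.094, adjusted p = 0.79 in limma). SNORD50B, inside SNHG5, had 5.73, 5.49 and 5.57 in inhibitor arrays, against 4.62, 4.99 and 5.40 in control arrays. Its controls were spread widely, and its difference of 0.59 carried an SE of 0.18 (adjusted p = 0.79 in limma).

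SNORA19 and SNORA70B were the other 2 of the 5 members with the smallest p among positive differences, and both lay under the olfactory receptor percentile. SNORA19, in EIF3A, had 2.56, 2.50 and 2.49 in inhibitor arrays, against 1.95, 2.23 and 2.18 in control arrays. SNORA70B, in USP34, had 3.73, 3.73 and 3.42 in inhibitor arrays, against 3.21, 3.06 and 3.27 in control arrays. Neither group pair overlapped, yet values this dim cannot be told from those of silent genes. The SNORA70 genes also have near-identical copies, which makes their values uncertain. Brighter probe sets that name SNORA70 with SNORA70B, at levels of 7.95 and 7.96, had differences of -0.047 and -0.063, with overlapping groups.

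On the negative side SNORA41, in EEF1B2, came first. It had 3.82, 3.55 and 3.90 in inhibitor arrays, against 4.06, 4.05 and 4.07 in control arrays, a difference of -0.30 (SE 0.11, adjusted p = 0.79 in limma). The next 4, SNORD116-21, SNORD115-38, SNORD116-26 and SNORD115-34, had differences of -0.31, -0.28, -0.21 and -0.25 with levels from 1.50 to 1.85. Of these 4, only SNORD116-26 had groups that did not overlap. All 5, ranked by p, lay below the olfactory receptor percentile. The largest negative difference was that of a brighter gene, SNORA66, in RPL5, with 6.57, 6.0 and 5.38 in inhibitor arrays, against 6.29, 6.32 and 6.55 in control arrays. Its groups overlapped, and its difference of -0.40 carried an SE of 0.25 (adjusted p = 0.80 in limma).

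**Figure D4:**
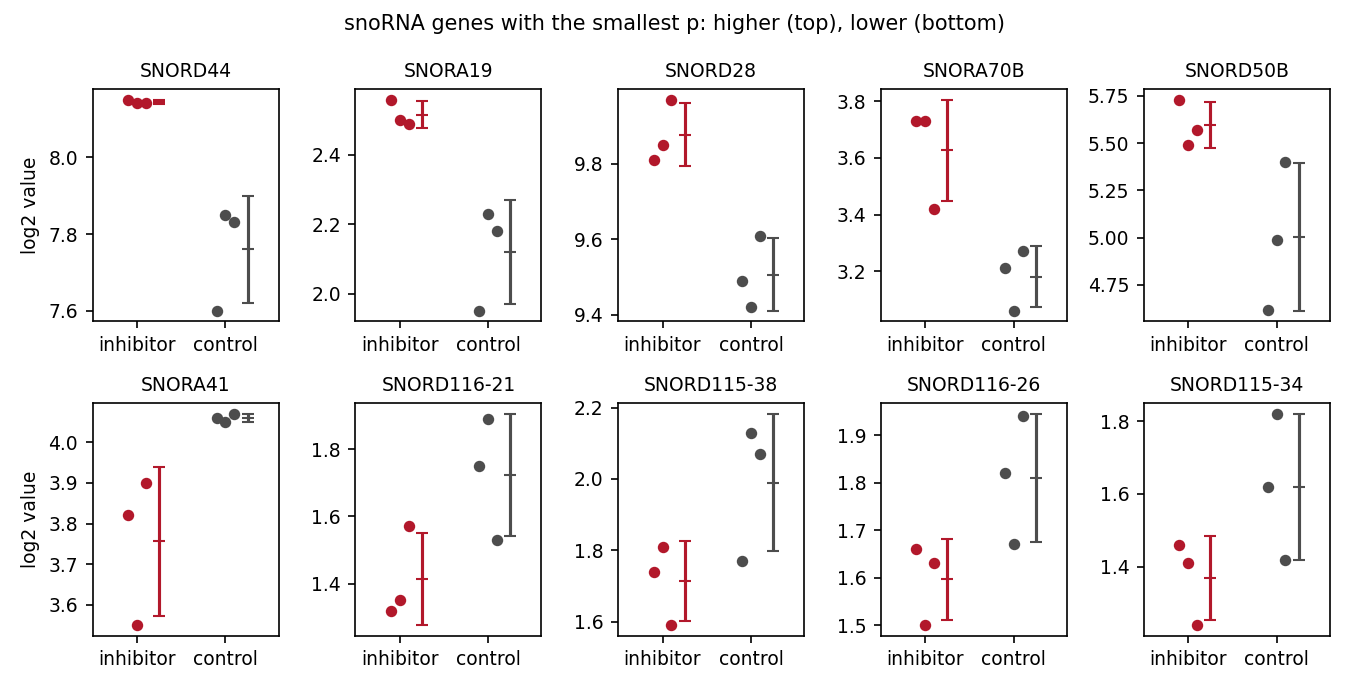
Log2 values of the 5 snoRNA genes with the smallest p among positive differences (top row) and the 5 among negative differences (bottom row), with inhibitor arrays left of control arrays in each panel, points for arrays and bars for mean and SD (n = 3 each). Each panel has its own scale; the groups overlap for SNORD116-21, SNORD115-38 and SNORD115-34 and for none of the other 7.

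The snoRNAs of GAS5 stood together. GAS5 is a noncoding host gene whose spliced RNA accumulates when growth stops and is otherwise destroyed as it is translated. All 6 of its measured residents had positive differences: 0.38 for SNORD44, 0.33 for SNORD75, 0.30 for SNORD78, 0.29 for SNORD77, 0.26 for SNORD79 and 0.12 for SNORD74. Of these, SNORD44 and SNORD75 were at an unadjusted p under 0.05, and none passed the adjusted threshold. The 6 averaged 7.01, 6.80 and 6.92 in inhibitor arrays, against 6.42, 6.68 and 6.79 in control arrays. The inhibitor arrays lay above the controls, by little at the nearest pair. The mean difference was 0.28 with all arrays, 0.18 without control replicate 1 and 0.23 without inhibitor replicate 1, with 6 of 6 positive each time. These residents share introns of 1 transcript and are not independent of each other, and the group was singled out after its values were seen.

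Probe sets that name GAS5 beside a snoRNA lie outside the rule. They read the same host on the same arrays, so they are not independent of the residents above. SNORD47 with GAS5 had 8.58, 8.42 and 8.64 in inhibitor arrays, against 7.95, 8.05 and 8.17 in control arrays, a difference of 0.49 (adjusted p = 0.78 in limma over all probe sets, of which 6.2% were at an unadjusted p under 0.05 in either direction). SNORD76 and SNORD80 with GAS5 had differences of 0.34 and 0.30, neither at an unadjusted p under 0.05. All 9 probe sets for snoRNAs of GAS5 were positive. Control replicate 1 was the lowest of the arrays for each of the 9, while it was the lowest for 26.77% of all genes.

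In SNHG17 and RPL23A the members differed in sign. The 4 SNORA71 genes of SNHG17 had differences from -0.18 to 0.080. In RPL23A, SNORD4A had 0.22 (SE 0.12) and SNORD42A -0.17 (SE 0.12). The groups overlapped for every member of both hosts, so the opposite signs of neighbours were not set apart from the replicate spread. SNORD30, which like SNORD28 lies in SNHG1, had 0.093, and of the 6 further SNHG1 probe sets that name a snoRNA 5 were positive. In TAF1D, a gene of the RNA polymerase I machinery, SNORD6 had 0.34 and SNORA1 0.21, and the 3 probe sets that name TAF1D beside a snoRNA had 0.24 to 0.28.

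**Figure D5:**
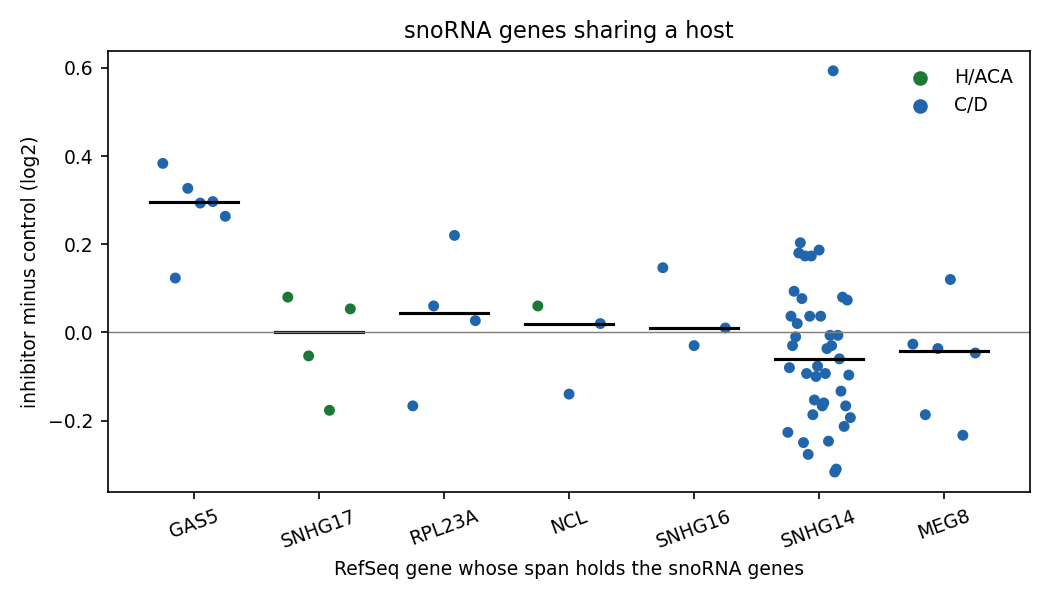
Inhibitor minus control difference (log2) of snoRNA genes that share a host, for 7 hosts with 3 or more members, with a bar at each host's median. The 6 genes of GAS5 all lie above 0, between 0.12 and 0.38, while genes of each of the other 6 hosts lie on either side of 0.

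The remaining members higher at an unadjusted p under 0.05 were SNORD45C, SNORA27, SNORA70C, SNORA46, SNORD12C, SNORD61, SNORD6 and SNORD21, with differences of 0.29 to 0.38. SNORD45C, in RABGGTB, had 6.07, 5.87 and 6.17 in inhibitor arrays, against 5.54, 5.65 and 5.83 in control arrays. SNORA27, in the ribosomal protein gene RPL21, had 6.26, 5.96 and 5.90 in inhibitor arrays, against 5.41, 5.79 and 5.79 in control arrays. The groups did not overlap for either gene, and control replicate 1 was the lowest array for each.

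The host messages could be set beside 86 members through probe sets of their own, and 50 of the 86 shared the sign of the host's difference. All 86 lie outside the tandem clusters, where 72.1% of members were positive, and 60.3% of the 68 measured hosts were positive. Since both leaned upward, many signs would agree in unrelated pairs as well, and a link within pairs was not tested. Across these pairs Pearson's r between the differences was 0.25 and Spearman's rho 0.24, given as a description, since pairs share arrays and some share a host. The hosts of SNORD45C, SNORD6, SNORD12C and SNORD21 had smaller positive differences of 0.16 for RABGGTB, 0.14 for TAF1D, 0.11 for ZFAS1 and 0.074 for RPL5. RBMX, the host of SNORD61, had -0.36 on 2 probe sets (SE 0.12, adjusted p = 0.79 in limma), opposite to the 0.29 of its snoRNA. EIF3A, a subunit of a translation initiation factor, had 0.069, USP34 0.21 and EEF1B2, a translation elongation factor gene, 0.051. Over the 68 measured hosts the median difference was 0.039, with 2 higher and 1 lower at an unadjusted p under 0.05 (2.95% and 3.16% of all genes). Among hosts of the brightest or most variable members, IPO7, a nuclear import receptor, had 0.15, NOL11 0.10, RPS3 0.068, RPL27A -0.001, RPS2 -0.030, PRRC2A -0.18 and TNPO2 -0.18, with adjusted p-values of 0.79 or more in limma. HSPA8, which encodes a heat shock protein and hosts SNORD14C and SNORD14E, had 0.019.

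The snoRNAs that act in ribosomal RNA processing were few among the members. SNORD13 had a difference of -0.20 (SE 0.11), SNORD14C of 0.047 and SNORD14E of -0.033, the last turning to 0.022 without inhibitor replicate 1 and to 0.025 without control replicate 1. The U3 RNA of the SNORD3 genes, which nucleates the processing complex, is read here by 5 probe sets that each name several genes. They held the same values, 11, 10.83 and 10.90 in inhibitor arrays and 10.74, 10.68 and 10.55 in control arrays, a difference of 0.25 (adjusted p = 0.82 in limma over all probe sets) with no overlap of arrays. SNORA73A with SNHG3 had 11.10, 10.51 and 10.15 in inhibitor arrays, against 10.65, 10.30 and 10.32 in control arrays, and the groups overlapped.

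The widest spread between replicates among all members was that of SNORA38, SNORA3 and SNORA2A. SNORA38 had 6.19, 5.00 and 4.97 in inhibitor arrays, against 5.51, 5.33 and 5.15 in control arrays. SNORA3 had 8.45, 7.43 and 7.15 in inhibitor arrays, against 7.66, 7.29 and 7.36 in control arrays. In both, inhibitor replicate 1 was the highest of the 6 arrays, and without it the differences were -0.35 for SNORA38 and -0.15 for SNORA3. SNORA2A had 4.77, 3.77 and 4.24 in inhibitor arrays, against 4.51, 3.58 and 4.14 in control arrays, and was spread in both groups. Among C/D genes SNORD116-2 was the most variable, with 3.04, 3.12 and 3.94 in inhibitor arrays, against 2.53, 2.53 and 3.26 in control arrays. The median within-group SD was 0.16 over the members, 0.13 over all genes and 0.16 over genes with 1 probe set.

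No gene of the proteins that bind snoRNAs was at an unadjusted p under 0.05. Of the 4 C/D core proteins, FBL, the methyltransferase fibrillarin, had -0.014, NOP56 -0.068, SNU13 -0.12 and NOP58 0.16 (adjusted p of 0.79 or more in limma). NOP58 had 10.18, 10.14 and 10.19 in inhibitor arrays, against 9.84, 10.07 and 10.13 in control arrays, with control replicate 1 apart. Of the 4 H/ACA core proteins, DKC1, the pseudouridine synthase dyskerin, had -0.015, GAR1 -0.0004, NHP2 -0.035 and NOP10 0.069. The signs of FBL, DKC1 and HSPA8 turned with the median in place of the mean over probe sets, that of GAR1 under quantile normalization and that of NOP10 with the brightest probe set. DKC1 itself hosts 2 H/ACA members, SNORA36A at -0.030 and SNORA56 at -0.043.

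Over all genes 50.7% were positive, and 2.95% were higher and 3.16% lower at an unadjusted p under 0.05, beside which the following lists are given. Of 9 factors that assemble snoRNA particles, 4 were positive and 0 passed at an unadjusted p under 0.05, from NAF1 at 0.23 (SE 0.17) and ZNHIT6 at 0.18 to RUVBL2 at -0.073 and ZNHIT3 at -0.17. Of 11 genes of maturation and transport, 7 were positive and 0 passed, with the exosome nuclease DIS3 at 0.23 and the exporter XPO1 at 0.14, against TCOF1 at -0.18 and PHAX at -0.10. Of 29 genes of the U3 processome and RNA polymerase I, 21 were positive with a median of 0.037. At an unadjusted p under 0.05, 0 of them were higher and 1 lower, NOL6 at -0.26 (SE 0.10), beside POLR1B at 0.20, UTP15 at 0.23 and UBTF at -0.12. The mean of this list was 7.97, 7.97 and 8.03 in inhibitor arrays, against 7.77, 8.0 and 8.06 in control arrays, and control replicate 1 was the lowest array.

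Small RNAs of the Cajal body, which guide the same marks on spliceosomal RNAs, were set beside them as the nearest relatives on the array. Of 16 SCARNA genes, 7 had a positive and 9 a negative difference, with a median of -0.017, and 0 were at an unadjusted p under 0.05 in either direction (0 at an adjusted p of 0.05 in limma), beside the same shares of all genes. Their means were 5.71, 5.64 and 5.71 in inhibitor arrays, against 5.70, 5.70 and 5.65 in control arrays. Inhibitor replicate 1, which stood high for H/ACA snoRNA genes, did not stand apart for these.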

How the data were processed

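Per the submitters' processing notes, the deposited log2 values rest on RMA and on the Transcriptome Analysis Console and Expression Console programs of Affymetrix (no version is named there). They cover 257430 probe sets of the Human Gene 1.0 ST array, hybridized with cDNA from 500 ng of total RNA. RMA makes arrays nearly alike in distribution, so a shift common to most genes is removed, and 6 arrays limit the precision. By the platform annotation, of these probe sets 224320 named 1 gene, 10159 several and 22951 none here. Symbols other than the members' were updated through RefSeq (GRCh38.p14), as were 5 member symbols for coordinates only. A gene's value was the mean of its single-gene probe sets, 173 for the 169 members.

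Inhibitor was set against control in limma 3.58.1 (R 4.3.3; lmFit, eBayes, no block), with Benjamini-Hochberg adjustment over 18656 genes. The fit was tested on simulated arrays with added shifts, drawn as independent normal values from limma's own variance estimate. They hold no array effects, so that test checks the code and not the p-values given here. Arrays with the same number deviated from their groups with correlations of -0.032, -0.040 and 0.17, so the numbers were not taken as pairs. Named members were the 5 smallest p-values each way, the 5 brightest and 2 most variable of each class, and listed processing and reference RNAs; their hosts, 8 core proteins and up to 2 genes each way of 3 lists were added. GAS5 residents and the other members named in the text were added after values were seen. The members and lists were chosen with earlier results of these data known. Sequences of the snoRNAs were not used here, and the planned search for their C box was not run; 77 probe sets naming a snoRNA with other genes entered only where stated. One host gene and its members' values by host are not reported here.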

Additional observations from a re-analysis of the deposited data

How the results depend on the processing

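Leaving out 1 array gave 0 to 1 genes called over the whole table (1 without control replicate 3), 0 snoRNA genes called, 8 to 18 snoRNA genes higher and 2 to 7 lower at an unadjusted p under 0.05. In these fits 4.73% to 10.65% of the snoRNA genes were higher and 1.18% to 4.14% lower. Of all genes, 2.29% to 3.82% were higher and 2.3% to 3.39% lower. Leaving out 1 array gave mean differences of -0.0259 to 0.1147 for H/ACA, 0.0287 to 0.056 for C/D and -0.0546 to 0.0648 for H/ACA minus C/D. Under the replicate block 0 genes were called, so the block changed no call. There 11 snoRNA genes were higher and 4 lower (6.51% and 2.37%, against 3.24% and 2.98% of all genes). With the median or the brightest of probe sets, 8 and 7 snoRNA genes were higher and 1 and 1 lower; nearly all members have a single probe set, so their differences stayed and only the shared variance estimate moved. Without the dimmest 30% of genes, and above the olfactory receptor level, 0 were lower, C/D had 0.1229 and H/ACA minus C/D -0.0777, since the tandem clusters and other dim genes leave the test; without these clusters C/D had 0.111. Both called counts stayed at 0 under each other setting, an adjusted p of 0.1 included. Of 1034 values of named genes under alternatives, 42 turned their sign, all of genes that are not called. Leaving out arrays gave SNORA38B -0.1767 to 0.1017, SNORA57 -0.205 to 0.035, SNORA23 -0.145 to 0.375, SNORA10 -0.3667 to 0.0183, SNORA38 -0.345 to 0.265, SNORA3 -0.1467 to 0.5033, SNORD41 -0.43 to 0.075, SNORD14E -0.1633 to 0.0417, NOL11 -0.009 to 0.1768, RPL27A -0.1248 to 0.0624, HSPA8 -0.0013 to 0.037, FBL -0.0419 to 0.002, DKC1 -0.0628 to 0.0325 and GAR1 -0.0385 to 0.06. With the brightest probe set, the IPO7 difference was -0.0333, the RPL27A difference 0.33, the RPS3 difference -0.07, the HSPA8 difference -0.07, the NOP10 difference -0.22, the ZNHIT3 difference 0.1567, the XPO1 difference -0.0167, the PHAX difference 0.04, the NOL6 difference 0.12 and the ZFAS1 difference -0.1033. With the median, the HSPA8 difference was -0.0533, the FBL difference 0.0433, the DKC1 difference 0.0817 and the PHAX difference 0.1167. With quantile normalization, the RPL27A difference was 0.0022 and the GAR1 difference 0.0034. The cause of these turns was not tested.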

Other observations

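Of 77 probe sets that name a snoRNA together with other genes, 69 held values of their own. Among these, 39 had a positive and 30 a negative difference, with a median of 0.037, and 1 was higher and 1 lower at an unadjusted p under 0.05 (limma over all 257430 probe sets, 6.2% of which were under it in either direction; 0 of the 69 at an adjusted p of 0.05). The higher one reads SNORD47 with GAS5 and the lower one SNORA60 with SNHG11.

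Noncoding genes that hold snoRNAs and have probe sets of their own, named after their values were seen, had differences of 0.43 for SNHG29 (SE 0.13), 0.16 for SNHG11, 0.11 for ZFAS1, 0.10 for EPB41L4A-AS1, 0.096 for SNHG12, 0.075 for SNHG32 and 0.029 for RPL32P3, each with an adjusted p of 0.79 or more in limma. The 6 probe sets that name SNHG11 with SNORA60 had differences of -0.43 to 0.21.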
